A study of Mus musculus with 16 samples.

Results

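The forkhead genes encode transcription factors built around a shared DNA-binding domain. Their transcripts were counted in double-positive (DP) thymocytes, the CD4 and CD8 expressing stage of T cell development in which antigen receptors are tested for selection, by sequencing RNA of bulk cells. Members were the protein-coding mouse genes whose symbol is Fox, a lower-case letter and a number, and 44 such genes were listed among the 55335 genes of the count files with a stated age and the 54532 of those without one. Cells were sorted by flow cytometry from mouse thymus. The 16 libraries fall into 5 groups. With a stated age there were 3 of young WT, 4 of old WT and 3 of young METTL3 KO. The labels of 3 more WT and 3 more METTL3 KO libraries give a genotype and no age, and these groups are called WT without age and METTL3 KO without age. METTL3 is the catalytic subunit of the enzyme that writes N6-methyladenosine on RNA. The labels do not state ages in weeks, strain, the driver or extent of the deletion, or whether replicates came from separate animals, so p-values measure only the spread between these samples.

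Forkhead proteins bind DNA through a winged helix, in which one helix lies in the major groove and reads a core motif. FOXO proteins are held in the cytoplasm when phosphorylated by AKT and enter the nucleus when that signal is low, and in thymocytes they drive genes of recombination, survival and homing. FOXM1 drives genes of mitosis, FOXP3 defines regulatory T cells, FOXP1 keeps T cells quiescent, FOXK proteins carry the BAP1 deubiquitinase complex and autophagy repressors to chromatin, and FOXN1 is the master factor of thymic epithelium.

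The bases that encode the DNA-reading helix show how alike the members are at their most conserved stretch, and whether reads from one can be told from another. The stretch was found in 43 of the 44 genes, in transcripts of the GENCODE annotation of mm10. It is given below for 10 of the 12 leading members and for Foxp3, Foxc1 and Foxa3, 5′ to 3′ on the coding strand, with capitals where a base is unlike that of Foxo3.
Foxo3: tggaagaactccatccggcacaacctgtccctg
Foxo4: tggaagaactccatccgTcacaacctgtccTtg
Foxp4: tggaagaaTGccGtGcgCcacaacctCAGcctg
Foxk1: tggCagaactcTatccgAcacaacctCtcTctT
Foxk2: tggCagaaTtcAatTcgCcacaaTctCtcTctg
Foxn2: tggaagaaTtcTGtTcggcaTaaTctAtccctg
Foxn3: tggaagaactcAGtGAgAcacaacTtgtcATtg
Foxj2: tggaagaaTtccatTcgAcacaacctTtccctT
Foxj3: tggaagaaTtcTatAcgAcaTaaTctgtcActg
Foxm1: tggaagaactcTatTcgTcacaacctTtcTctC
Foxp3: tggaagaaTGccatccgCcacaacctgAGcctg
Foxc1: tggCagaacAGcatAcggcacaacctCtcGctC
Foxa3: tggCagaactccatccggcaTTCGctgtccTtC
Among the members shown, Foxo4 differed from Foxo3 at 2 of these 33 bases, Foxj2 and Foxp3 at 5, and Foxk2, Foxn3 and Foxp4 at 8. Foxc1 and Foxc2 shared a stretch of at least 50 bases, as did Foxd3 and Foxd4. None of the 12 leading members shared one with another forkhead transcript.

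Counts per library split the family into levels that lie far apart. CPM, the unit of level, is a count relative to its library total after TMM scaling within each set of files. A mean of at least 1 CPM over the 16 libraries placed 19 members in the expressed class, a lower mean with any count placed 19 in the low class, and 6 members (Foxa2, Foxe3, Foxf2, Foxi2, Foxr2 and Foxs1) had no count in any library. Foxa3, Foxc1 and Foxp2 reached the expressed class only through METTL3 KO without age, and in the other 13 libraries their means were 0.220, 0.234 and 0.297 CPM, so 16 members had at least 1 CPM there. The 12 leading members had mean levels between 46.6 CPM (Foxk1) and 153 CPM (Foxo3), and the next was Foxp3 at 7.05 CPM. Just inside the limit of 1 CPM were Foxb1 at 1.66 and Foxp2 at 1.75 CPM, and just outside it Foxh1 at 0.560 and Foxf1 at 0.419 CPM.

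**Figure D1:**
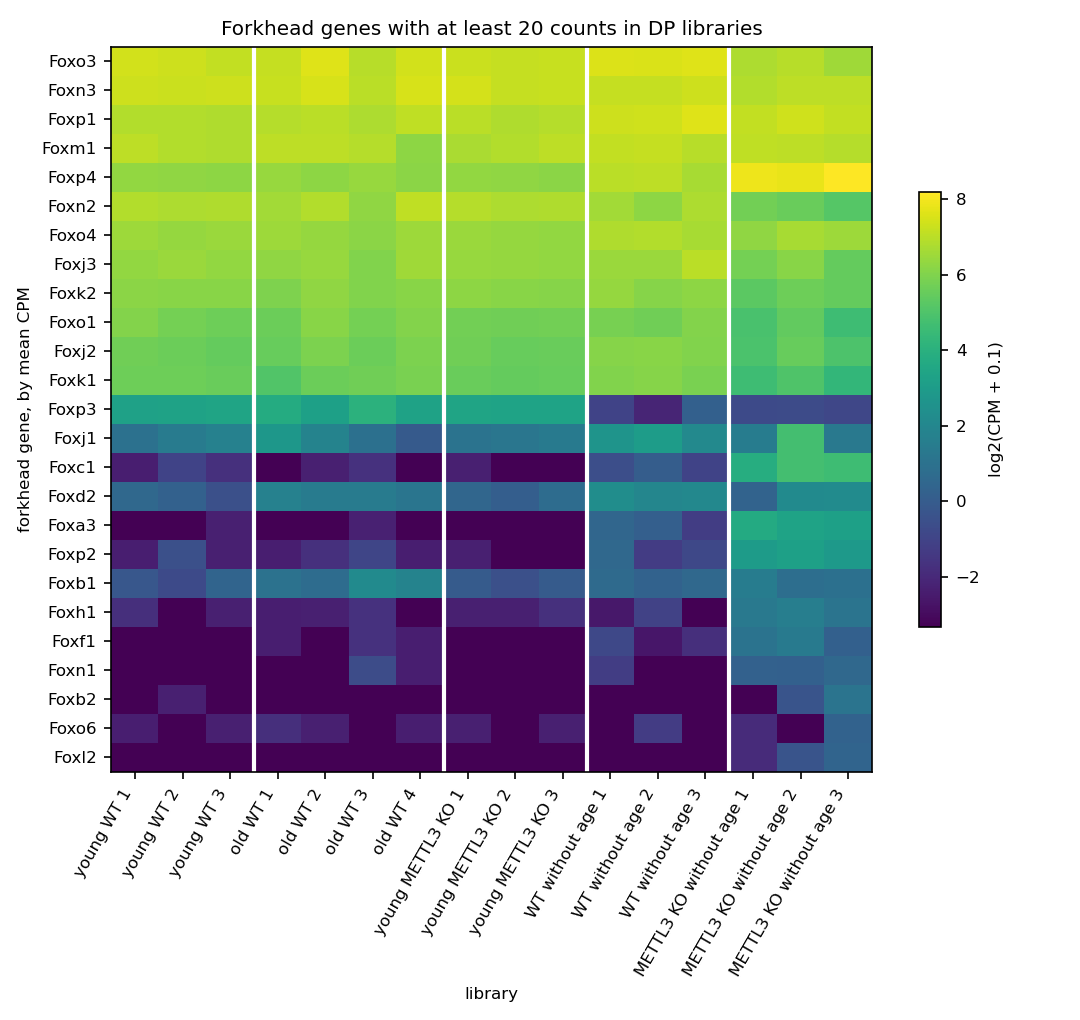
Level of the 25 forkhead genes with a summed count of at least 20 (rows, by mean CPM) in each of the 16 libraries (columns, white lines between groups), coloured as log2(CPM + 0.1). The 12 rows at the top are high in every library, and Foxp4, Foxc1, Foxa3 and Foxp2 are highest in the 3 METTL3 KO libraries without age.

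Levels of different genes were compared per kilobase of all exons of a gene, and on that length FOXO and FOXM1 transcripts led in young WT. Foxo4 had 24.9 ± 1.30 CPM per kilobase (SD, n = 3), Foxm1 20.98 ± 1.93 and Foxo3 20.4 ± 1.85. Foxm1 and Foxo3 did not differ beyond their spread. Foxp4 (15.8 ± 0.484), Foxn2 (15.5 ± 0.491), Foxn3 (13.6 ± 0.249) and Foxk2 (13.5 ± 0.222) followed as neighbouring pairs within their spread. Foxj2, Foxp1 and Foxj3 lay between 7.55 and 8.92, and Foxo1, the FOXO member best known for its part in T cell homing, had 6.55 ± 0.877 beside Foxk1 at 6.48 ± 0.306. The order of the middle genes depends on the length used. Per kilobase of the longest transcript Foxo4, Foxm1 and Foxo3 still led in young WT, but Foxj3 (17.3) and Foxp1 (16.1) lay above Foxk2 (14.1). In METTL3 KO without age Foxp4 stood first at 50.7 ± 7.57 CPM per kilobase (n = 3), with Foxo4 at 26.0 ± 3.75, Foxm1 at 22.6 ± 1.37 and Foxo3 at 14.3 ± 1.89 next. On the longest transcript Foxp4 (62.4), Foxo4 (28.7) and Foxm1 (27.96) kept these places, and Foxp1 (20.6) and Foxn3 (16.5) lay above Foxo3 (15.9). In WT without age the first 4 were Foxo4 (31.8 ± 2.28), Foxo3 (25.3 ± 0.889), Foxp4 (24.7 ± 3.16) and Foxm1 (23.9 ± 1.96). Levels in the sets with and without an age were scaled separately, so they are set side by side and not tested against each other.

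**Figure D2:**
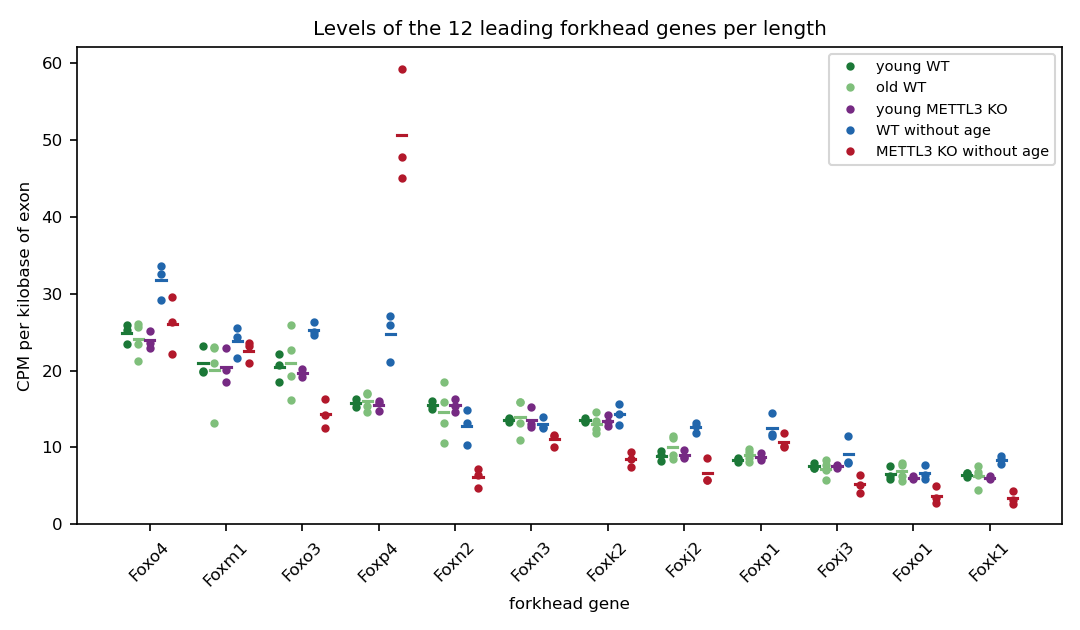
CPM per kilobase of exon (vertical axis, linear from 0) of the 12 leading forkhead genes, with 1 point per library, a bar at each group mean and 5 groups by colour. The 3 Foxp4 points of METTL3 KO without age lie above every other point.

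The FOXO subfamily (Foxo1, Foxo3, Foxo4 and Foxo6) held 31.1% ± 0.672 (SD, n = 3) of the family's length-scaled total in young WT, 30.8% ± 1.66 (n = 4) in old WT and 30.3% ± 0.346 (n = 3) in young METTL3 KO. It held 31.8% ± 0.183 in WT without age and 23.3% ± 1.27 in METTL3 KO without age. The FOXP subfamily moved the other way in that set, from 18.6% ± 0.675 to 32.9% ± 4.69 of the total (n = 3 each), and the 3 KO libraries did not overlap the 3 WT libraries in either share. The family total itself overlapped, at 199 to 202 CPM per kilobase in WT and 176 to 205 in KO.

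Gene counts summed to between 9781368 and 10307780 in libraries with an age, 15927134 to 16167074 in WT without age and 10575795 to 13740694 in METTL3 KO without age. Reads outside genes made up 47.5% to 51.2% of entries in the set with an age, 7.23% to 7.60% in WT without age and 11.8% to 15.03% in METTL3 KO without age, and reads not aligned 0.58% to 0.83% and 50.5% to 52.2%. Mettl3 did not tell the young KO libraries from young WT, with 66.0, 65.7 and 59.5 CPM in young WT and 62.1, 64.5 and 64.3 in young METTL3 KO (log2 difference 0.00 ± 0.08, edgeR adjusted p = 1). Young METTL3 KO is therefore used here as a label, and METTL3 protein and single Mettl3 exons were not measured. Mettl3 fell in the libraries labelled METTL3 KO without age (log2 change -0.58 ± 0.18, edgeR adjusted p = 0.0189), as did 7 of 8 genes of the m6A methyltransferase complex, Mettl3 among them, with a median of -0.55, where 24.0% of all genes were called lower. The defining genes of DP cells (13 genes, among them Rag1, Rag2, Cd4 and Cd8a) summed to 13583 to 18696 CPM in every group but METTL3 KO without age, where they summed to 9154 to 11615 CPM. In bulk libraries fewer cells of a type and less RNA per cell cannot be told apart.

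Age was read from old WT set against young WT. None of the 16 members tested passed (edgeR quasi-likelihood test, Benjamini-Hochberg over 14228 genes), where 0.253% of all genes did, and DESeq2 called 0 members as well. A total of 2 members had an unadjusted p under 0.05, Foxd2 and Foxb1. The 12 leading members had log2 changes between -0.09 and 0.17, with 95% intervals reaching from -0.43 to 0.43. The median over the 16 members was 0.04 beside 0.01 over all genes.

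Foxb1, known from the developing brain, and Foxd2, from developing mesenchyme, were the members whose groups stood apart. Foxb1 had 0.779, 0.501 and 1.21 CPM in young WT (8, 5 and 12 counts) and 1.95, 1.59, 4.41 and 3.48 CPM in old WT (20, 16, 41 and 36 counts). Every old library lay above every young one, with old WT 3 and 4 the highest. The log2 difference was 1.77 ± 0.44 (edgeR adjusted p = 0.178). Foxd2 had 1.36, 1.10 and 0.604 CPM in young WT and 3.22, 2.68, 2.69 and 2.13 CPM in old WT (log2 difference 1.37 ± 0.34, edgeR adjusted p = 0.167). Its groups did not overlap either. Such separation was seen in 9.78% of all genes tested, against these 2 of 16 members. Foxb1 passed where genes of low count were not filtered (log2 change 1.75, adjusted p = 0.0488).

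Markers of other cells were higher in some old libraries, most of all old WT 3, though no gene of these lists passed the test. The 13 B cell genes, all with counts in both groups, summed to 32.1, 24.9 and 26.1 CPM in young WT and to 36.6, 87.3, 224 and 34.3 CPM in old WT. The 12 myeloid genes summed to 36.5, 32.7 and 34.4 CPM in young WT, where Cd14 was at 0, and to 40.4, 47.5, 303 and 41.2 CPM in old WT. The 14 mature single-positive thymocyte genes, Foxp3 among them, summed to 478, 489 and 494 CPM in young WT and to 486, 542, 1052 and 542 CPM in old WT. Log2 differences were above 0 in 10 of 10 B cell, 9 of 9 myeloid and 13 of 13 mature thymocyte genes tested. Foxd2 was highest in old WT 1 and Foxb1 second highest in old WT 4, where the B cell and myeloid sums lay just above those of young WT. Old WT 3 held the highest sums, and without it Foxb1 had a log2 difference of 1.49 and Foxd2 of 1.37. Foxb1 shares 418 bases of exon with B230323A14Rik on the other strand, which averaged 6.4 counts in these libraries. The part of these in the Foxb1 and Foxd2 values was not tested.

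Foxp3, the defining factor of regulatory T cells, had 9.44, 9.72 and 10.6 CPM in young WT, 13.5, 9.32, 16.5 and 9.95 CPM in old WT, and 10.4, 10.3 and 10.04 CPM in young METTL3 KO. Old and young libraries overlapped (log2 difference 0.31 ± 0.19, edgeR adjusted p = 0.522). The highest, old WT 3, also held the highest sums of mature thymocyte genes and of 16 other regulatory T cell genes (326 CPM), and without it the log2 difference was 0.14. In the set without age it had 0.392, 0.127 and 1.04 CPM in WT (6, 2 and 16 counts) and 0.496, 0.525 and 0.453 CPM in KO (6 counts in each library). The level of Foxp3 thus lay far lower in every library of that set. The other regulatory T cell genes summed to 229 to 239 CPM in young WT, 224 to 278 in WT without age and 140 to 167 in METTL3 KO without age. Of 14 tested in METTL3 KO without age against WT without age, 12 had log2 differences above 0, with 5 called higher and 2 lower. Their median was 0.45, beside 0.08 over all genes, of which 29.9% were called higher and 24.0% lower. The sum was thus lower in KO, though most single genes were not. Foxp3 (chrX:7573644-7595245, mm10) shares 590 bases of exon with Ccdc22, 373 with Gm36995 and 266 with Ppp1r3f on the other strand, and 853 with Flicr on its own. In the set with an age Foxp3 averaged 110 counts, Flicr 2.3 and Ccdc22 0.900. In the other set Foxp3 averaged 7 counts, Flicr 26.3 and Ccdc22 0. How reads over these shared bases were assigned was not tested.

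Foxj1, the master factor of motile cilia, varied between libraries of a group. It had 6.64, 3.47, 1.83 and 0.869 CPM in old WT, which overlapped the 1.85, 2.71 and 3.22 CPM of young WT.

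The KO label at a stated age was read from young METTL3 KO set against young WT. None of the 16 members tested passed (edgeR adjusted p = 1 for each), none had an unadjusted p under 0.05 and DESeq2 called 0. The background was 0% of 14228 genes, with 88 at an unadjusted p under 0.05. Log2 differences of the 12 leading members lay between -0.11 (Foxo1) and 0.06 (Foxp1), with 95% intervals reaching from -0.43 to 0.35. Foxp4 had 80.0, 78.0 and 75.3 CPM in young WT and 79.2, 78.1 and 72.5 CPM in young METTL3 KO. None of the 16 members had groups apart, beside 9.26% of all genes.

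The same label in the libraries without age was read against WT without age, and there the family differed widely. Of 21 members tested, 7 were higher and 7 lower (edgeR adjusted p under 0.05), or 66.7%, where 53.9% of all 16432 genes passed, 29.9% higher and 24.0% lower. The count is near that background, so the values of single members are given and no more is read from their number. Groups did not overlap in 16 of the 21 members, beside 63.8% of all genes. Both counts include Foxc1, Foxa3, Foxp2, Foxh1, Foxf1 and Foxn1, which passed the count filter only through the KO libraries. A difference was required of these members, so their part in either count supports nothing. The median of the 21 members was -0.23 beside 0.08 over all genes, whose quartiles were -0.61 and 1.09. WT without age held 3 male libraries and KO 2 female and 1 male, as read from Xist and Y-linked genes. The labels state no sex.

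**Figure D3:**
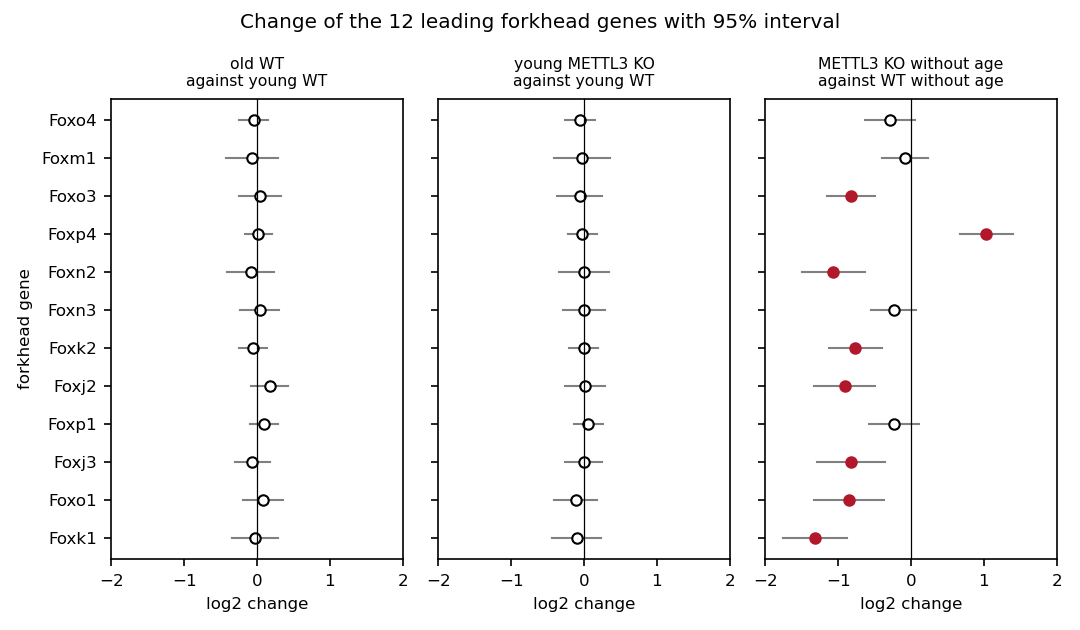
Log2 change of the 12 leading forkhead genes in 3 comparisons (horizontal axis), with 95% intervals as grey lines and filled red points where the edgeR adjusted p was under 0.05. The left and middle panels hold no filled point, and the right panel holds Foxp4 at 1.04 and 7 genes below 0.

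FOXP members went different ways. Foxp4, a repressor that pairs with FOXP1 and FOXP2 (chr17:47867133-47924645, mm10), had 128, 133 and 104 CPM in WT without age and 235, 222 and 292 CPM in METTL3 KO without age. Every KO library lay above every WT library, 2.05-fold higher in the fit (log2 change 1.04 ± 0.17, 95% interval 0.67 to 1.40, edgeR adjusted p = 0.000499). Libraries with an age held 72.0 to 84.2 CPM. Foxp1, which restrains T cell activation, had 159, 162 and 199 CPM in WT and 139, 164 and 140 CPM in KO (log2 difference -0.23 ± 0.16, adjusted p = 0.230), so that its groups overlapped. Of 16 FOXP partner genes (NFAT factors, RUNX1, NuRD and CtBP corepressors), 7 fell and none rose, with a median of -0.42, where 24.0% of all genes were called lower. Nfatc3, a calcium-responsive factor, fell by 2.06 ± 0.20 on the log2 scale (adjusted p = 6.11e-05), and Nfat5 by 1.40, Gatad2b by 1.15, Nfatc1 by 1.05, Runx1 by 0.60 and Hdac2 by 0.52.

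Among FOXO members Foxo3 and Foxo1 fell. Foxo3 had 189, 186 and 199 CPM in WT without age and 108, 123 and 94.6 CPM in KO (log2 change -0.82 ± 0.15, edgeR adjusted p = 0.00107). Foxo1 had 56.2, 51.5 and 66.8 CPM in WT and 29.6, 43.2 and 24.3 CPM in KO (log2 change -0.85 ± 0.22, adjusted p = 0.00712). Neither gene had overlapping groups. Foxo1 shares 674 bases with the antisense gene Gm20402, which averaged 90.0 counts in libraries with an age and 0 in this set. Foxo4 had 113, 117 and 102 CPM in WT and 77.0, 103 and 91.7 CPM in KO (log2 difference -0.29 ± 0.16, adjusted p = 0.143). Its highest KO library lay above its lowest WT library, and without that KO library, replicate 2, it passed (adjusted p = 0.0245).

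Of 25 regulators of FOXO proteins 14 fell, 1 rose and 10 did not pass (median -0.65), where 24.0% of all genes were called lower and 29.9% higher. Pdpk1, the kinase that activates AKT, fell by 1.68 ± 0.21, the catalytic PI3K subunit Pik3cg by 1.33 ± 0.17, Skp2, a ligase adaptor that degrades FOXO1, by 1.42, and the acetyltransferase Ep300 by 1.18 (edgeR adjusted p between 0.000153 and 0.00146). Pik3cd rose, by 0.61. Of 33 target genes tested 14 fell, 2 rose and 17 did not pass (median -0.50), beside the same shares. Rag1, the recombinase subunit that is also a DP marker, fell by 2.44 ± 0.19 (adjusted p = 4.11e-05), and Rbl2 by 1.43, Sesn3 by 1.28, Cdkn1b by 1.27 and Cat by 1.05. Sesn1 (0.43) and Gadd45a (0.60) rose. The lower quartile over all genes was -0.61. The falls named here went beyond it, and how common changes of their size were was not counted.

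Both FOXK members fell. Foxk1 had 64.5, 67.7 and 59.1 CPM in WT without age and 24.1, 32.7 and 19.8 CPM in KO, 2.50-fold lower in the fit (log2 change -1.32 ± 0.20, edgeR adjusted p = 0.000389), the largest fall among the 21 members tested. Foxk2 had 82.4, 68.1 and 75.6 CPM in WT and 38.9, 49.4 and 44.9 CPM in KO (log2 change -0.76 ± 0.16, adjusted p = 0.00252). Every KO library lay below every WT library for both genes. Of 14 partners in the BAP1 and SIN3 complexes 5 fell and 3 rose (median -0.23). Over all genes 24.0% were called lower and 29.9% higher (median 0.08), so no more is read from these numbers. Hcfc1, the scaffold bound by BAP1, fell by 1.54 and Asxl2 by 1.17, while Mbd6 rose by 0.91 and Asxl1 by 0.69.

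Foxn2, Foxj2 and Foxj3, whose proteins are broadly expressed, also fell. Foxn2 had 96.9, 75.9 and 109 CPM in WT and 52.5, 47.1 and 35.1 CPM in KO (log2 change -1.06 ± 0.20, edgeR adjusted p = 0.00112). Foxj2 had 68.4, 70.2 and 63.5 CPM in WT and 30.6, 46.0 and 30.9 CPM in KO (log2 change -0.91 ± 0.19, adjusted p = 0.00217). Foxj3 had 86.9, 89.2 and 127 CPM in WT and 55.6, 71.1 and 44.4 CPM in KO (log2 change -0.82 ± 0.21, adjusted p = 0.00666). The groups of these 3 genes did not overlap. Foxn3, a checkpoint-linked repressor, had 144, 146 and 161 CPM in WT and 116, 133 and 132 CPM in KO, apart but not past the test (log2 difference -0.24 ± 0.14, adjusted p = 0.179).

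Foxj1 itself rested on 1 library. It had 6.14, 8.08 and 4.17 CPM in WT without age and 2.73, 26.8 and 2.42 CPM in KO, where KO replicate 2 held 306 counts against 33 and 32. The log2 difference was 0.79 ± 0.90 (edgeR adjusted p = 0.491), and without that library it was -1.34 (adjusted p = 0.0172). Of 9 cilium genes tested 5 rose and 2 fell, where 29.9% of all genes were called higher and 24.0% lower. The 16 cilium genes in the files summed to 206 to 255 CPM in WT and 130 to 167 in KO. In the set with an age 6 passed the count filter and Dnah5 had no count. Genes near 0 in WT could pass the filter here through the KO libraries alone. Dnah5 (5.58), Ccdc40 (2.36) and Dnah11 (1.96) rose, and Rfx3 (-1.30) fell.

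Foxm1, which drives genes of G2 and mitosis, did not pass the test. It had 141, 147 and 125 CPM in WT without age and 136, 133 and 121 CPM in KO (log2 difference -0.08 ± 0.14, 95% interval -0.39 to 0.24, edgeR adjusted p = 0.669), with overlapping groups. Of 25 target genes 14 fell, 1 rose and 10 did not pass, with a median of -0.61, where 24.0% of all genes were called lower. Kif20a fell by 1.64 ± 0.18 (adjusted p = 1.00e-04), and Nek2 by 1.51, Ccna2 by 1.39, Top2a by 1.22 and Dlgap5 by 1.08. Cdk1 had a log2 difference of -0.30 (adjusted p = 0.138). Old WT 4 had the lowest Foxm1 of its group, at 75.7 CPM beside 121 to 133 CPM in the other old libraries.

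The members that rose from near 0 were Foxc1, Foxa3, Foxp2, Foxh1, Foxf1 and Foxn1. Each of these 6 passed the count filter only through the KO libraries, so a difference was required of them and their number supports nothing. Foxc1, a mesenchymal and endothelial factor, had 9, 15 and 6 counts in WT without age (0.588, 0.954 and 0.391 CPM) and 171, 310 and 319 counts in KO (14.1, 27.1 and 24.1 CPM). Foxa3, a liver and gut factor, had 20, 16 and 5 counts in WT (1.31, 1.02 and 0.326 CPM) and 157, 115 and 123 in KO (13.0, 10.1 and 9.30 CPM). In both genes the lowest KO library held several times the highest WT library. Foxp2, known from neurons and lung, had 21, 5 and 7 counts in WT and 95, 104 and 94 in KO.

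Log2 changes were 5.06 ± 0.39 for Foxc1 (edgeR adjusted p = 4.11e-05), 3.59 ± 0.44 for Foxa3 (adjusted p = 0.000142) and 3.47 ± 0.50 for Foxp2 (adjusted p = 0.000276). Foxh1, a partner of SMAD proteins, rose from 1, 6 and 0 counts to 29, 34 and 27 (log2 change 3.96 ± 0.85, adjusted p = 0.00226), and Foxf1, a mesenchymal factor, from 7, 1 and 3 to 24, 29 and 14 (log2 change 2.92 ± 0.75, adjusted p = 0.00622). Foxn1 had 5, 0 and 0 counts in WT and 13, 12 and 18 in KO (log2 change 3.32 ± 1.01, adjusted p = 0.0132). The Foxf1 call was lost with sex as a covariate (log2 change 2.11, adjusted p = 0.0781). That of Foxn1 was lost without WT replicate 2 (adjusted p = 0.0753) or 3 (adjusted p = 0.0775), and replicate 1 held every Foxn1 count of WT. Libraries with an age held at most 6 counts of any of the 6 genes.

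**Figure D4:**
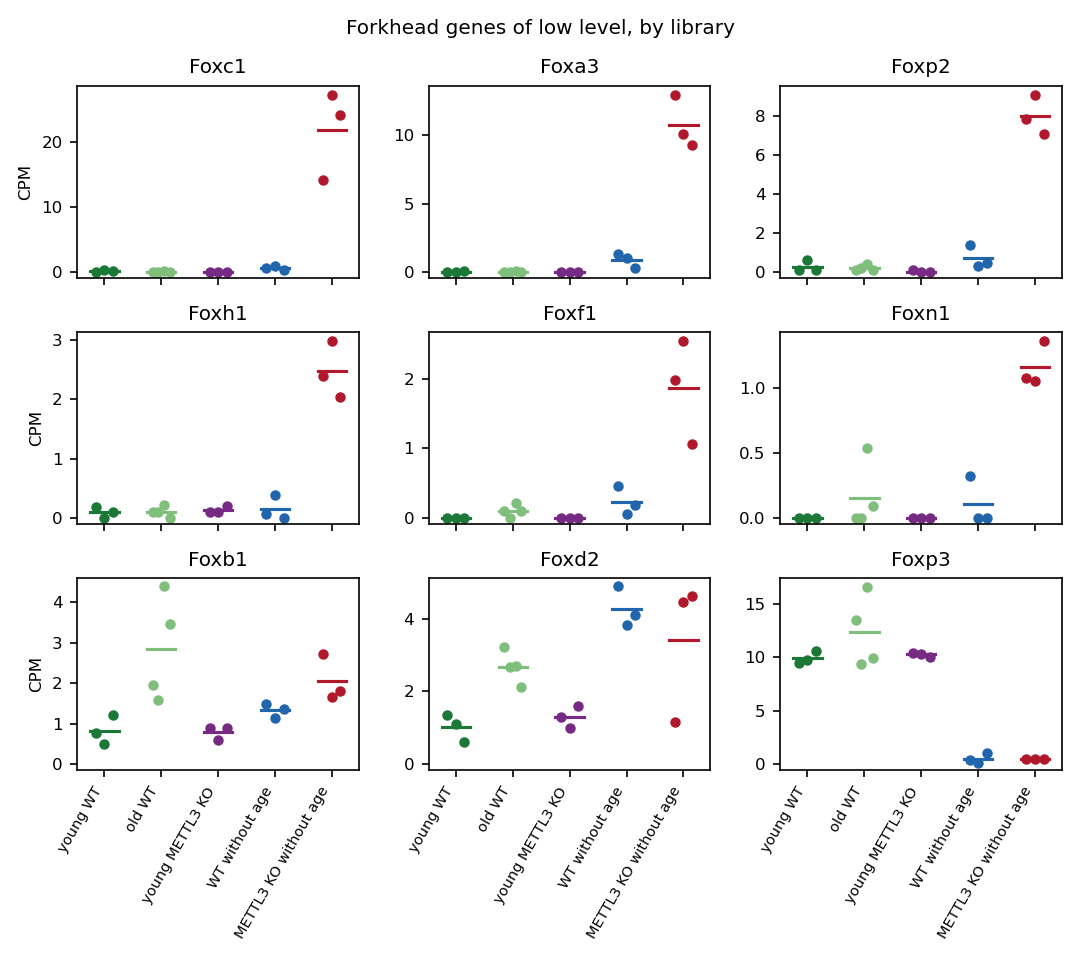
CPM (vertical axes, linear, a scale per panel) of 9 forkhead genes of low level, with 1 point per library and a bar at each group mean. In the top 6 panels the METTL3 KO points without age lie above all others, Foxb1 and Foxd2 are higher in old than young WT, and Foxp3 lies above 9 CPM only in groups with an age.

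Genes of low level were often higher in METTL3 KO without age whatever their family. Among protein-coding genes under 1 CPM in WT without age and with any count in that set, 38.8% (2836 of 7305) were higher and apart in KO, beside 9 of 22 members. Protein-coding genes with any count numbered 14378 to 14952 in WT libraries and 16040 to 16237 in KO libraries, which were the less deep. Reads within genes made up 37.0% to 37.3% of entries in the WT libraries and 27.3% to 29.5% in the KO libraries, and reads outside genes 7.23% to 7.60% and 11.8% to 15.03%. Their part in the rise of genes from near 0 was not tested. Low or uncounted forkhead genes with a count numbered 3 to 8 per WT library and 11 to 14 per KO library, and 2 to 5 in libraries with an age.

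Marker genes of other cells were read in the same KO libraries, where 29.9% of all genes were called higher and 24.0% lower. Of 10 mesenchymal and endothelial genes tested 6 rose (Col1a1 2.66, Tek 4.14, Egfl7 2.25, Cdh5 3.68, Col3a1 3.34 and Lum 2.76 on the log2 scale), though the summed level of the 15 genes, most of it Thy1, overlapped at 2097 to 2490 CPM in WT and 1676 to 2628 in KO. Dcn was at 0 in WT. In the set with an age 3 of these 15 genes passed the count filter. Genes near 0 in WT could pass it here through the KO libraries alone. Among the low protein-coding genes above, 38.8% were higher and apart in KO. Of 11 B cell genes tested 8 rose, and the 13 genes of the list summed to 30.4 to 31.0 CPM in WT and 67.6 to 74.4 in KO. Myeloid genes summed to 18.7 to 28.3 and 39.4 to 48.8 CPM, with 3 of 10 called higher, near the share of all genes, and Cd14 at 0 in WT. Thymic epithelial genes summed to 37.4 to 45.3 and 37.7 to 49.5 CPM, with Ccl25 higher, Ly75 lower and 3 of 5 not past the test. Krt5, Krt14, Krt17, Pax1 and Pax9 were at 0 in WT, and Krt14 in KO. DP genes fell in 7 of 13. The part of these in the forkhead changes was not tested.

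Of the other low members with a summed count of at least 20, none was tested. In METTL3 KO without age Foxb2 had 0, 8 and 27 of its 36 counts, Foxl2 2, 8 and 16 of its 26 and Foxo6 2, 0 and 15 of its 30, with replicate 3 the highest for each. The 13 remaining low members held 2 to 18 counts each over all libraries. Foxd2 had 4.90, 3.82 and 4.10 CPM in WT without age and 1.16, 4.47 and 4.61 in KO (log2 difference -0.32 ± 0.47, edgeR adjusted p = 0.580). Foxb1 had 1.502, 1.15 and 1.37 CPM in WT and 2.73, 1.66 and 1.81 in KO, apart but not past the test (adjusted p = 0.287).

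An interaction term over 12 libraries tested whether KO minus WT was unequal in the young set and the set without age. Of 22 members tested, 9 passed, where 36.9% of all 16557 genes did. Foxp4 (1.22 ± 0.17, edgeR adjusted p = 0.000140), Foxc1 and Foxp2 had a more positive difference in the set without age, and Foxk1, Foxn2, Foxj2, Foxj3, Foxk2 and Foxo3 a more negative one. Foxc1 and Foxp2 passed the filter only through METTL3 KO without age and had at most 6 counts in a young library, so a difference was required of them and the size of theirs is not well set. The call of Foxj3 was lost without WT without age replicate 3 (adjusted p = 0.0898) and that of Foxp2 without young WT replicate 2 (adjusted p = 0.0707). For Foxo1 the value was -0.56 ± 0.26 (adjusted p = 0.0947). The sets differ in processing and in unstated ways, so set, processing and age cannot be told apart.

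Promoters were read because members of both the leading and the low class moved in one set. The RefSeq promoter table (GRCm38.p6) held 28 of the 44 genes. Shown are the 250 bases before the start of Foxp4 (chr17:47924633-47924882, minus strand), which rose from a high level, Foxk2 (chr11:121259737-121259986, plus strand), which fell, and Foxc1 (chr13:31806396-31806645, plus strand) and Foxa3 (chr7:19023540-19023789, minus strand), which rose from near 0. They run 5′ to 3′ on the gene's strand, with capitals at CpG, the dinucleotide that carries DNA methylation.
Foxp4: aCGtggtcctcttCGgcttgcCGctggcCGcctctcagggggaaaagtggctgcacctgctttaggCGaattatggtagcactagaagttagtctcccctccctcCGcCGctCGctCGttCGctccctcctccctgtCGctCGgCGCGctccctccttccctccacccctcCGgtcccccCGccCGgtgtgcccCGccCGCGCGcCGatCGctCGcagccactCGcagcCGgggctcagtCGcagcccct
Foxk2: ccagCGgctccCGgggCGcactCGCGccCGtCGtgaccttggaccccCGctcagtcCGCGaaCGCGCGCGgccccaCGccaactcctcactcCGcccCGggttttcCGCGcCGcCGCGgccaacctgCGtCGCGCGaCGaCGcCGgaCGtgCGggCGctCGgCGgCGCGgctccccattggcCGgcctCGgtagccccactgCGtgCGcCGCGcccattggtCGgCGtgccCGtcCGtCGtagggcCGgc
Foxc1: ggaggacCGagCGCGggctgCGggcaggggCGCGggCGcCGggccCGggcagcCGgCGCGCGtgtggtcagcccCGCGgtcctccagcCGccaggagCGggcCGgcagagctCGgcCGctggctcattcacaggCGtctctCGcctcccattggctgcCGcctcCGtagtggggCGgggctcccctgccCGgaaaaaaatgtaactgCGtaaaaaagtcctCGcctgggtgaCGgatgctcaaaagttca
Foxa3: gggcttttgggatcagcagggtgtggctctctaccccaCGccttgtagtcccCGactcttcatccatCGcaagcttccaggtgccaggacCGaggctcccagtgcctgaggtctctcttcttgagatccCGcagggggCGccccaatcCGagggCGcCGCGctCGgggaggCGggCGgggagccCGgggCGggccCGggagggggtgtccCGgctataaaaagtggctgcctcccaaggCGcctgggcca
Foxk2 held 48 CpG, Foxc1 29, Foxp4 27 and Foxa3 18. Promoters of at least 50% GC and a CpG ratio of observed to expected of at least 0.6 made up 60.6% of the 33 forkhead promoters and 31.0% of all 32851. They were 7 of 8 among leading members with a promoter entry (median 32.5 CpG), 3 of 4 among other members of the expressed class (17), 7 of 11 in the low class (15) and 2 of 5 among genes without counts (6). Those counts are of genes, with a single promoter for each, while the shares before them are of promoters. Foxp1 entered with its promoter of 34 CpG, and its others, not CpG-rich by this rule, held 3 and 11. The forkhead core GTAAACA, on either strand, was in 3.03% of forkhead promoters and 3.17% of all promoters in this window.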

How the data were processed

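RNA of sorted DP thymocytes was sequenced in 16 libraries. The submitters' processing notes name HISAT2 2.0.5 and mm10. No source used here names the counting program, its annotation or its use of strand. The authors deposited 1 whole-number read count per gene and library; no value was altered, and 5 summary lines stayed out of library sizes (shares above). Identifiers matched the GENCODE M21 gene table for 55154 of 55335 and 54409 of 54532 genes. No pair of libraries was identical.

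Counts were filtered (filterByExpr), scaled by TMM and tested with edgeR 4.0.16 in R 4.3.3 (robust quasi-likelihood, two-sided, Benjamini-Hochberg over all genes, threshold 0.05). Age and young KO came from 1 fit of 10 libraries, KO without age from 6, and the difference between sets from 12. DESeq2 1.42.0 was an alternative. Intervals are 95% and cover the spread between libraries. The procedure was tested on simulated data. Named were all expressed members, low members with at least 20 counts or a call, and of each gene list the called members by p (up to 6) and others of smallest p. Members and lists were chosen with earlier results of these data known. Some items are not reported here.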

Additional observations from a re-analysis of the deposited data

Results flagged for a closer look

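KO minus WT was unequal between the set without age and the young set in an interaction test over 12 libraries (edgeR adjusted p under 0.05) for 9 forkhead genes. Those were 9 of 22 tested, where 36.9% of all 16557 genes passed. On the log2 scale the excess in the set without age was 1.22 for Foxp4. It was 7.70 for Foxc1 (6.87 to 9.63 with a library left out) and 6.31 for Foxp2 (4.75 to 8.24), which passed the filter only through METTL3 KO without age and had 0 to 6 counts per young library, so that a difference was required of them. The value was -1.05 for Foxk1, -0.89 for Foxn2, -0.75 for Foxj2, -0.65 for Foxj3, -0.59 for Foxk2 and -0.59 for Foxo3. Set, age and processing cannot be told apart in this contrast.

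Among the 4 old WT libraries, Foxa3 had 0.107 CPM (1 count) in old WT 3 and 0 in the others, so that the gap fills the range by construction and nothing is read from it. It was 1 of 19 members looked at for a far library.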

How the results depend on the processing

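Over TMM replaced by other scalings, filters, DESeq2, sex as a covariate and each library left out, the counts of forkhead genes called, placed in the expressed class or among the 5 highest per kilobase stayed within 1.5 times of their value in 70 of 71 alternatives. The exception was age with no filter on low counts, with 1 member called (Foxb1) in place of 0. For age and young KO the value was 0, so the bound of 1.5 times could only ask whether it stayed at 0. The main fits called 36 and 0 of all 14228 genes there, so these alternatives say little about the family. With each library left out the count of members called ranged from 14 to 16 for KO without age and from 8 to 12 for the difference between sets. It was 0 for age and for young KO. Over all genes, such fits called 7746 (of 18096) to 9866 (of 17805) for KO without age. For the difference between sets they called 5225 (of 18324) to 7349 (of 17059). The Foxj1 difference in KO without age turned to -1.34 without METTL3 KO without age 2, where a single library held most counts. Foxj3 lost its difference between sets under the replicate block (adjusted p = 0.110) and without WT without age 3 (adjusted p = 0.0898), Foxp2 without young WT 2 (adjusted p = 0.0707), and Foxo1 gained one in 7 alternatives. Foxo4 in KO without age passed with no filter (adjusted p = 0.0362) and without METTL3 KO without age 2 (adjusted p = 0.0245). The cause was not tested.

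Same-numbered libraries showed no shared deviation (correlations from -0.229 to 0.0869 with an age and -0.125 to 0.00886 without). Correlations of differently numbered libraries ran from -0.197 to 0.324 and from -0.0703 to 0.0989. With so few libraries per group these values cannot exclude pairing by number. With the replicate block the count was 14 for KO without age, 8 for the difference between sets, and 0 for age and young KO. Over all genes the block called 7642 of 16432 for KO without age and 4543 of 16557 for the difference between sets. Over all genes the age comparison called 36, but 153 with DESeq2, 85 with no filter, 61 with the block, 11 with the groups alone and 8 to 59 with a library left out, and young KO called 1 with no filter. A limit of 0.5 CPM placed 20 members in the expressed class and one of 5 CPM 13. Low members rest on few counts per library, and such values have no more precision than that number allows.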
